A study of Mus musculus with 18 samples.

Results

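The synthesis of nucleotides, of the folate-bound one-carbon units they need, and of polyamines was followed through 36 genes in mouse liver. The genes were listed by name for their known roles and matched by symbol to Ensembl gene identifiers. All 36 were found among the 34937 genes of the count tables, and all 36 passed the filter on low counts, which left 17789 genes tested. They comprise 11 purine genes, 5 pyrimidine genes, 6 deoxynucleotide genes, 2 nucleoside diphosphate kinases, 8 genes of serine and folate metabolism and 4 polyamine genes.

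Poly-A RNA from the livers of 18 mice, 3 per group, was sequenced as single reads of 50 nt. The mice were kept on regular chow and injured with carbon tetrachloride, a hepatotoxin, injected intraperitoneally in oil at 0.5 µL per g of body weight. Group 12ON was sampled 12 days after injury with MycER activation, which was brought about by tamoxifen at 1 mg, injected intraperitoneally each day. MycER joins the transcription factor MYC to the part of the estrogen receptor that binds hormone, and the fusion is inactive until tamoxifen is given. The labels of 1OFF, 2OFF, 3OFF and 7OFF give a liver without activation at day 1, 2, 3 or 7 from injury, and group 12 is the liver without it at day 12. The labels used here do not say whether MycER had been active earlier in the OFF mice, whether group 12 received tamoxifen, or which promoter and cell type drive the fusion. They do not give the strain, sex or age of the mice. The design sets 12ON against 12 and each OFF group against 12ON, and 7OFF was also set against 12.

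In purine synthesis a ring is built step by step on phosphoribosyl pyrophosphate, from the committed step of Ppat to the closing steps of Atic, and the product is then turned into guanine nucleotides by the Impdh enzymes and Gmps. Pyrimidines are made by Cad, Dhodh and Umps, CTP by the Ctps enzymes, and ribonucleotide reductase supplies the deoxy forms for DNA. Folate enzymes carry one-carbon units, mostly taken from serine, to purines and to thymidylate, while Odc1, Amd1, Srm and Sms make the polyamines. Liver is a main site of folate and methionine metabolism, and MYC with its partner MAX is known to bind the letters CACGTG, called an E-box, near genes of these pathways, among them Odc1 and Cad.

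Promoter windows of 300 bases, from 250 before to 50 after the annotated start, are shown for 5 members to set their letters beside their values below. Sequences are those of RefSeq on GRCm38.p6, read on the strand of the gene, and CACGTG is in capitals. Ppat and Paics are shown because their starts lie 276 bases apart on opposite strands of chromosome 5, so that each transcript begins within the other gene. The Ppat window (minus strand) lies at chr5:76951529-76951828 and the Paics window (plus strand) at chr5:76951052-76951351. Atic (chr1:71556906-71557205, plus strand) and Impdh2 (chr9:108560186-108560485, plus strand) are purine genes whose windows hold the E-box. Mthfd1l (chr10:3972825-3973124, plus strand) had the highest fold change of the 36 genes in 12ON, and its window lacks those letters.
Ppat: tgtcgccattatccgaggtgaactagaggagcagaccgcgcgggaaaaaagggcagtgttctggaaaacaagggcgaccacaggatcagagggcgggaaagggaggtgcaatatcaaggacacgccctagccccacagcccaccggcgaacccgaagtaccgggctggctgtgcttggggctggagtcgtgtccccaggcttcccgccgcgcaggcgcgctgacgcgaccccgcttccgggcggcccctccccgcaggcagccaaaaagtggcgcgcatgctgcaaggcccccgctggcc
Paics: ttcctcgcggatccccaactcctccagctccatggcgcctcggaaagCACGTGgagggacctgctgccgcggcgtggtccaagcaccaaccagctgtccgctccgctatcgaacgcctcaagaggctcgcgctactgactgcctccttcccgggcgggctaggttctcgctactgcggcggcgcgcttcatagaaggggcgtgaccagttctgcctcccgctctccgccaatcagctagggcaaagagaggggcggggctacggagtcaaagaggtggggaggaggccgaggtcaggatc
Atic: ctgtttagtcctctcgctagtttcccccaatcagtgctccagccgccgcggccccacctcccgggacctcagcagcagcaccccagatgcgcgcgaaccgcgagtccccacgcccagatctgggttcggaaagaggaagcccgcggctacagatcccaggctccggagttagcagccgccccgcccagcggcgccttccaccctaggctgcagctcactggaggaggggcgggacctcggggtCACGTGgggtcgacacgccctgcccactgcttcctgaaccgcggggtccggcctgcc
Impdh2: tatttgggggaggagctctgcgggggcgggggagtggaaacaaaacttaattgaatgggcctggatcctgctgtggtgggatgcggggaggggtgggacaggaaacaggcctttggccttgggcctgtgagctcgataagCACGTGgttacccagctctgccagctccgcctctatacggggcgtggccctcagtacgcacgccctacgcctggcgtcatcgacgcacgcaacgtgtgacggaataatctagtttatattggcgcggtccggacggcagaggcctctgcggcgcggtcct
Mthfd1l: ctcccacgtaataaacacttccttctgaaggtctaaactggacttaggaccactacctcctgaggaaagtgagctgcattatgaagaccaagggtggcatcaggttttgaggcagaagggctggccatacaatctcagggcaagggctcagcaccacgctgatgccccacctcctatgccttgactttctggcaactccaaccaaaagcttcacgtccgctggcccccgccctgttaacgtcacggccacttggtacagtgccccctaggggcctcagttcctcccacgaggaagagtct

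RefSeq windows were given for 33 of the 36 members, and Pfas, Dhodh and Srm are named only. CACGTG reads the same on both strands and was found in 7 of the 33, or 21.2%, against 1367 of 12476 tested genes with a window, or 11%. It lay 7 bases before the start of Atic, 61 before that of Tyms, 110 before that of Impdh2, 148 before that of Dtymk and 203 before that of Paics. It lay 196 bases before one of the starts of Sms, whose other window lacks it, and 18 and 29 bases before the starts of Nme1. Of the members that rose in 12ON, as described below, 5 of 24 held it, and of the others 2 of 9. When the variants CACGCG and CATGTG, on either strand, were also counted, 36.4% of the members and 35.1% of the tested genes held a match. The windows of Odc1 and Cad, named above, held no CACGTG, and bases outside the windows were not searched. A match describes the letters of a window and not binding.

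The libraries held 23.1 to 75.3 M counts each. The mitochondrial chromosome gave 6.42% to 7.11% of counts in 12ON and 4.80% to 5.25% in group 12, without overlap. Of 10 hepatocyte markers, all detected in every library, 9 were lower in 12ON than in group 12 and 1, Cps1, was higher, and their summed level was 32523 to 40034 CPM in 12ON against 106718 to 116809 CPM in group 12. Markers of S phase and mitosis rose, 10 of 10, with sums of 380 to 527 CPM in 12ON and 65.4 to 77.0 CPM in group 12, and so did 6 of 6 cholangiocyte markers, with 184 to 198 against 32.1 to 93.4 CPM. Endothelial markers fell, 6 of 6, as did 5 of 8 Kupffer cell and 3 of 6 lymphocyte markers, while 3 of 7 stellate cell markers rose and none of 5 erythroid markers passed. Of all tested genes 24% rose and 22.6% fell. Cftr, a cholangiocyte marker, was at 0 in 2 libraries of group 12, and no other marker of these lists was at 0 in 12ON or 12. In whole liver, fewer cells of a type and less RNA per cell cannot be told apart, and the part of cell makeup or of the mitochondrial share in the results below was not tested. The construct's parts gave 6.26 ± 0.978 CPM for Myc in 12ON and 7.37 ± 1.88 CPM in group 12, and 10.1 ± 1.18 CPM for Esr1 in 12ON against 38.1 ± 4.08 CPM in group 12 (SD, n = 3), in totals that do not separate fusion from endogenous reads.

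Values below are read counts scaled to library size (CPM) after TMM normalisation, given for replicates 1, 2 and 3 in turn. Errors of log2 fold changes are standard errors with n = 3 mice a group. A gene is called at an adjusted p under 0.05 in the quasi-likelihood test of edgeR, with the Benjamini-Hochberg adjustment taken over all 17789 genes and all 18 libraries in the fit, and p-values measure the spread between mice.

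**Figure D1:**
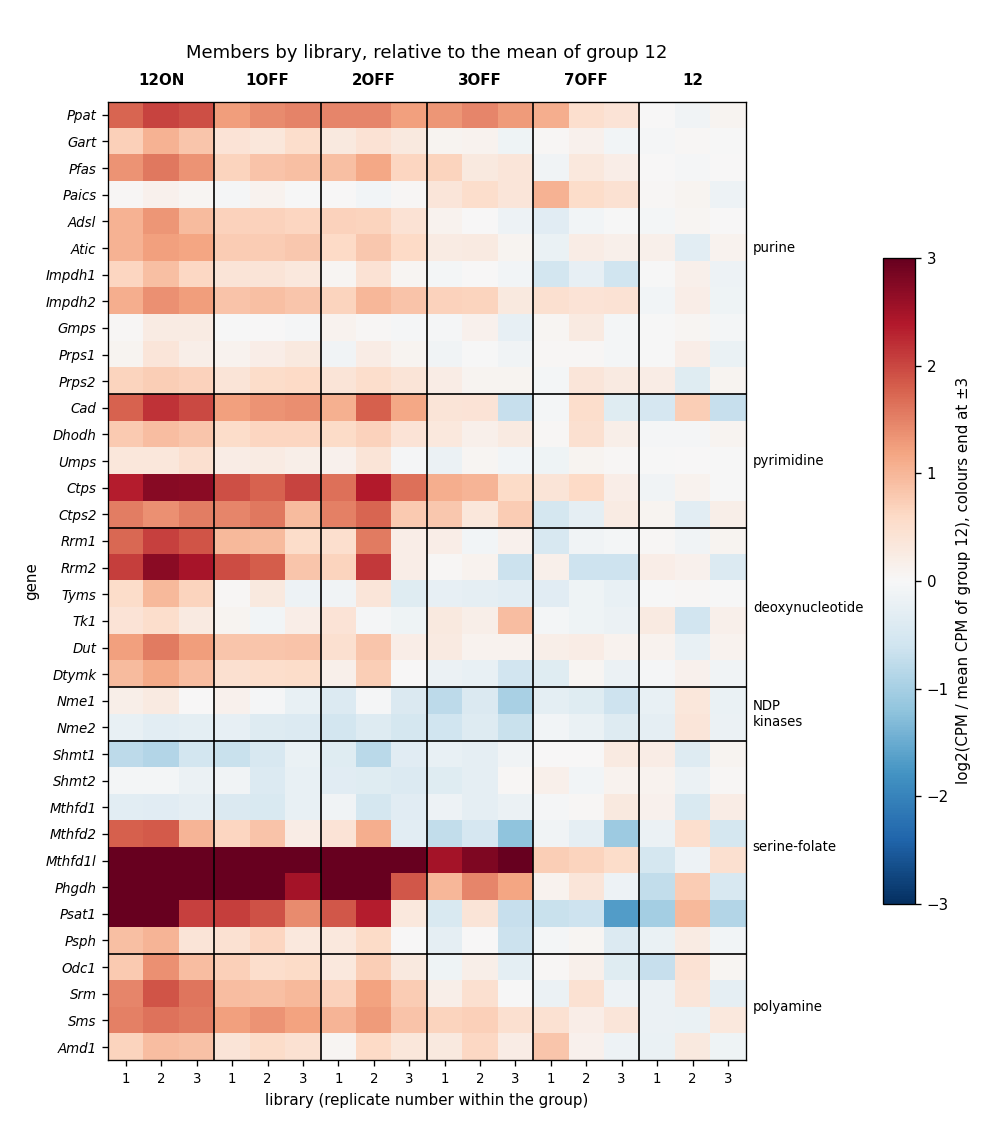
Level of the 36 members (rows, by arm) in each of the 18 libraries (columns, by group and replicate), as log2 of CPM over the mean of group 12; red is higher and blue lower, and colours end at ±3. The 12ON columns are red for most purine, pyrimidine, deoxynucleotide and polyamine genes, with Mthfd1l, Phgdh and Psat1 reddest, and Ppat and Paics are red in the 7OFF columns.

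The first comparison asked how livers with MycER active at day 12 differed from livers without. Of the 36 genes, 27 rose in 12ON, 1 fell and 8 were not called, where 24% of all tested genes rose and 22.6% fell. The members' median log2 fold change was 1.03, against -0.0047 over all tested genes. The rises ran from 1.31-fold for Umps to 21.4-fold for Mthfd1l, and the gene that fell was Shmt1. The 8 genes not called were Paics, Gmps, Prps1, Tk1, Nme1, Nme2, Shmt2 and Mthfd1. Of the 36 members, 27, or 75%, were higher in each 12ON library than in each library of group 12, where 30% of all tested genes were. They were the same 27 genes that were called, and the call rests on the same libraries. Among the 12ON mice, replicate 2 was the highest in 25 of the 27. Scaling by total counts in place of TMM moved the median of all genes by 0.49 and gave 9130 genes higher and 1403 lower in 12ON, against 4269 and 4029 with TMM. Under it 33 members rose and none fell, so the directions of the members that moved little are relative to the TMM scale.

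**Figure D2:**
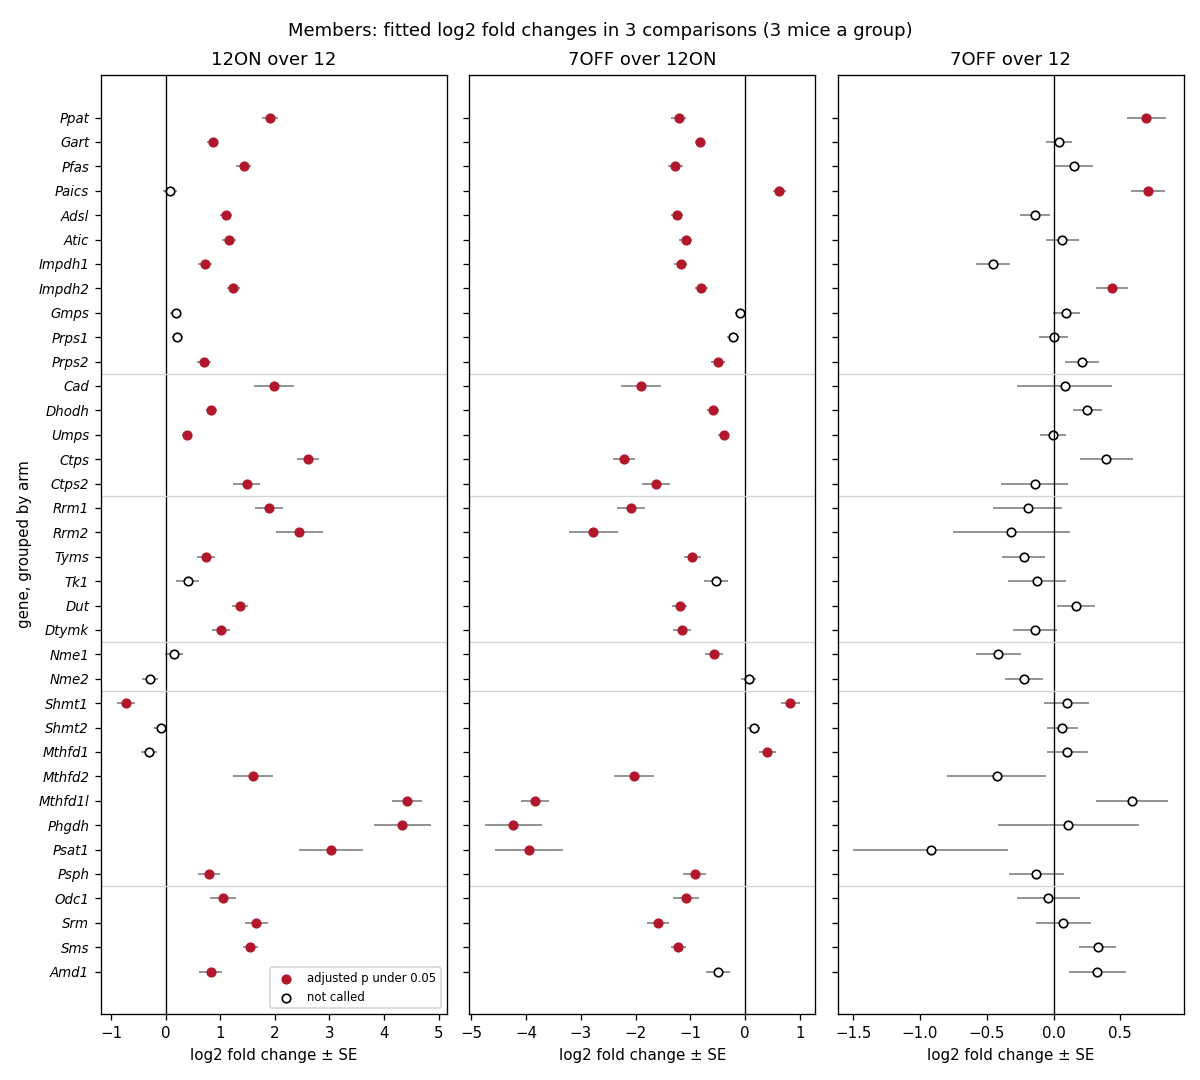
Fitted log2 fold changes of the 36 members with their standard errors in 12ON over 12, 7OFF over 12ON and 7OFF over 12 (each panel has its own scale); filled points passed an adjusted p of 0.05. Filled points lie to the right for 27 genes in the panel on the left and to the left for 27 genes in the middle one, and 3 are filled in the panel on the right.

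In the purine arm 8 of 11 genes rose and none fell. Ppat, the amidotransferase that commits phosphoribosyl pyrophosphate to purines (ENSMUSG00000029246, chromosome 5, 76913249 to 76951578 in GRCm38), gave 43.2, 53.0 and 49.6 CPM in 12ON livers and 13.0, 12.0 and 13.7 CPM in group 12. The groups stood far apart, and the log2 fold change was 1.91 ± 0.15 (edgeR adjusted p = 3.44e-07). The other ring-building genes that rose were Pfas (1.43 ± 0.14), Atic (1.15 ± 0.13), Adsl (1.11 ± 0.11) and Gart (0.86 ± 0.10). Gart shares 16.9% of its exon bases with Gm15964 on the opposite strand, and without strand their reads cannot be told apart.

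Paics, which acts just before Adsl (ENSMUSG00000029247, chromosome 5, 76951307 to 76967509), was not called. It gave 135, 144 and 136 CPM in 12ON and 135, 139 and 119 CPM in group 12, values that overlapped, with a log2 fold change of 0.08 ± 0.13 (edgeR adjusted p = 0.643). Paics had more CPM than Ppat in every library, and Paics has the shorter exon length of the pair. Exons of the genes overlap by 272 bases, 8.67% of Paics and 6.15% of Ppat, and reads there were counted for both. Of the pair, the window that holds CACGTG is that of Paics. With total-count scaling Paics had a log2 fold change of 0.58.

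For guanine nucleotides, Impdh2, the isozyme known from dividing cells, gave 78.0, 94.6 and 87.5 CPM in 12ON and 34.8, 41.8 and 33.3 CPM in group 12 (1.24 ± 0.12, edgeR adjusted p = 2.04e-06). Its sister Impdh1 rose by 0.73 ± 0.13, and Gmps, which completes GMP, was not called (0.19 ± 0.10). Impdh2 shares 39.3% of its 50-base words with a pseudogene, and reads that align to several places were not counted, so its level may be too low in all groups. Of the enzymes that make phosphoribosyl pyrophosphate itself, Prps2 rose (0.70 ± 0.13) and Prps1 did not pass (0.22 ± 0.11). Without group 12 replicate 2, Prps1 was called at 0.33.

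All 5 pyrimidine genes rose. Cad, the trifunctional enzyme that opens the pathway (chromosome 5, 31054780 to 31078479), gave 78.1, 103 and 89.8 CPM in 12ON and 16.1, 38.4 and 14.1 CPM in group 12. Replicate 2 of group 12 stood above the others of its group and still below every 12ON library. The log2 fold change was 1.98 ± 0.37 (edgeR adjusted p = 0.000424), 2.58 without that replicate, and 2.67 with a term for the mitochondrial share. Ctps, which makes CTP from UTP (chromosome 4, 120539868 to 120570276), gave 34.5, 44.7 and 44.2 CPM in 12ON and 6.23, 7.32 and 6.70 CPM in group 12. It rose 6.08-fold (2.60 ± 0.20, edgeR adjusted p = 3.54e-07), and its isozyme Ctps2 rose 2.80-fold (1.48 ± 0.25). Dhodh, the mitochondrial step (0.84 ± 0.11), and Umps, which yields UMP (0.39 ± 0.10), rose too.

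In the deoxynucleotide arm 5 of 6 genes rose, beside markers of S phase that rose 10 of 10 (sums above). Rrm2, the small subunit of ribonucleotide reductase known from dividing cells (chromosome 12, 24708241 to 24714146), gave 29.9, 45.8 and 39.3 CPM in 12ON and 8.15, 7.73 and 5.30 CPM in group 12. The groups did not overlap, and the log2 fold change was 2.45 ± 0.44 (edgeR adjusted p = 0.000317). The large subunit Rrm1 (1.89 ± 0.26) rose as well, whereas Rrm2b, a subunit known from resting cells, gave 4.08, 3.85 and 3.49 CPM in 12ON and 4.46, 3.59 and 3.51 CPM in group 12 and was not called (-0.01 ± 0.15). For thymidine nucleotides, Dut, which removes dUTP (1.36 ± 0.14), the kinase Dtymk (1.01 ± 0.16) and the synthase Tyms (0.74 ± 0.16) rose. Tyms missed the threshold with a term for the mitochondrial share (0.59, edgeR adjusted p = 0.0931). Tk1, the salvage kinase of S phase, gave 27.8, 29.7 and 25.0 CPM in 12ON and 25.1, 14.0 and 23.3 CPM in group 12 and was not called (0.41 ± 0.21). Tk1 shares 1.6% of its exon bases with Afmid on the opposite strand, which gave 37.8 CPM in 12ON and 130 CPM in group 12. Reads there were counted for both, and their part in the Tk1 values was not tested.

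The nucleoside diphosphate kinases, which equalise the triphosphate pools, did not pass. Nme1 gave 81.1, 86.7 and 72.4 CPM in 12ON and 62.1, 90.7 and 63.0 CPM in group 12 (0.15 ± 0.17), and Nme2 187, 175 and 178 CPM in 12ON and 182, 282 and 193 CPM in group 12 (-0.28 ± 0.14). Replicate 2 of group 12 was the highest of the 3 for both genes, and Nme2 was called lower without group 12 replicate 1 (-0.40, edgeR adjusted p = 0.0407). Both genes share exons with Gm20390, a readthrough transcript, over 12.5% of Nme1 and 48.9% of Nme2. Nme2 also shares 22.2% of its 50-base words with other loci. This leaves their counts uncertain, and with them the ratio and the levels per kb given below.

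In the arm of serine and folate 5 of 8 genes rose, 1 fell and 2 were not called. Phgdh, which draws serine out of glycolysis (chromosome 3, 98313170 to 98339990), gave 44.5, 74.2 and 20.4 CPM in 12ON and 1.35, 3.82 and 1.62 CPM in group 12. The 12ON mice differed among themselves over 3-fold, yet the lowest stood above every mouse of group 12 (4.34 ± 0.53, edgeR adjusted p = 1.35e-05). Psat1, the next step, gave 115, 125 and 48.1 CPM in 12ON and 5.76, 23.0 and 6.35 CPM in group 12 (3.03 ± 0.59, edgeR adjusted p = 0.000647). Without group 12 replicate 2, the highest of its group for both, the log2 fold changes were 4.94 for Phgdh and 3.98 for Psat1, and a term for the mitochondrial share gave 4.09 for Psat1. Psph, which releases serine, rose by 0.79 ± 0.21. Phgdh shares 47.8% of its 50-base words with other loci, chiefly Gm7901 and Gm9347, and Psph shares 10.4% of its exon bases with Cct6a, which gave 117 CPM in 12ON and 72.1 CPM in group 12. Psph itself had a mean of 15.3 CPM in 12ON and 8.79 CPM in group 12. Reads on the shared bases were counted for both genes, and their part in the rise of Psph was not tested.

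In the mitochondrion, Mthfd1l, which releases formate for the cytosol (ENSMUSG00000040675, chromosome 10, 3973118 to 4167081), gave 40.0, 48.4 and 36.1 CPM in 12ON and 1.30, 1.67 and 2.61 CPM in group 12. Its 21.4-fold rise (4.42 ± 0.27, edgeR adjusted p = 6.59e-08) was the highest of the 36 genes. Mthfd2, the dehydrogenase known from embryonic and dividing cells, rose 3.03-fold (1.60 ± 0.36). The 3 genes of this arm that did not rise had its highest levels per kb of exon in group 12, 57.8 CPM per kb for Shmt1, 63.5 for Shmt2 and 76.7 for Mthfd1, where the other 5 had 0.419 to 2.75. Shmt2, the mitochondrial serine hydroxymethyltransferase, gave 139.9, 141 and 130.0 CPM in 12ON and 158, 130.0 and 151 CPM in group 12 (-0.09 ± 0.12), and the cytosolic Mthfd1 gave 206, 200.5 and 213 CPM in 12ON and 279, 186 and 299.8 CPM in group 12 (-0.31 ± 0.16). The cytosolic Shmt1 fell, with 131, 122 and 153 CPM in 12ON and 263, 171 and 239 CPM in group 12 (-0.73 ± 0.17, edgeR adjusted p = 0.00229). The highest 12ON value of Shmt1 was below the lowest of group 12. With total-count scaling Shmt1 was at -0.25 and no longer called, Shmt2 was at 0.40, and Mthfd1 was called lower without group 12 replicate 2 under TMM (-0.49).

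All 4 polyamine genes rose. Odc1, the ornithine decarboxylase that sets the pace of the pathway, gave 103, 154 and 113 CPM in 12ON and 36.9, 79.7 and 61.8 CPM in group 12 (1.05 ± 0.24, edgeR adjusted p = 0.00191). Replicate 2 was the highest in both groups, and the groups did not overlap. Srm, spermidine synthase, gave 66.4, 89.7 and 74.1 CPM in 12ON and 21.6, 31.0 and 20.2 CPM in group 12 (1.66 ± 0.21). Sms, spermine synthase (1.55 ± 0.14), and Amd1, which makes the aminopropyl donor (0.82 ± 0.21), also rose. Amd1 shares 78.1% of its 50-base words with other loci, chiefly its copy Amd2, so its count is uncertain, and the share was 24.3% for Odc1 and 17.5% for Sms.

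**Figure D3:**
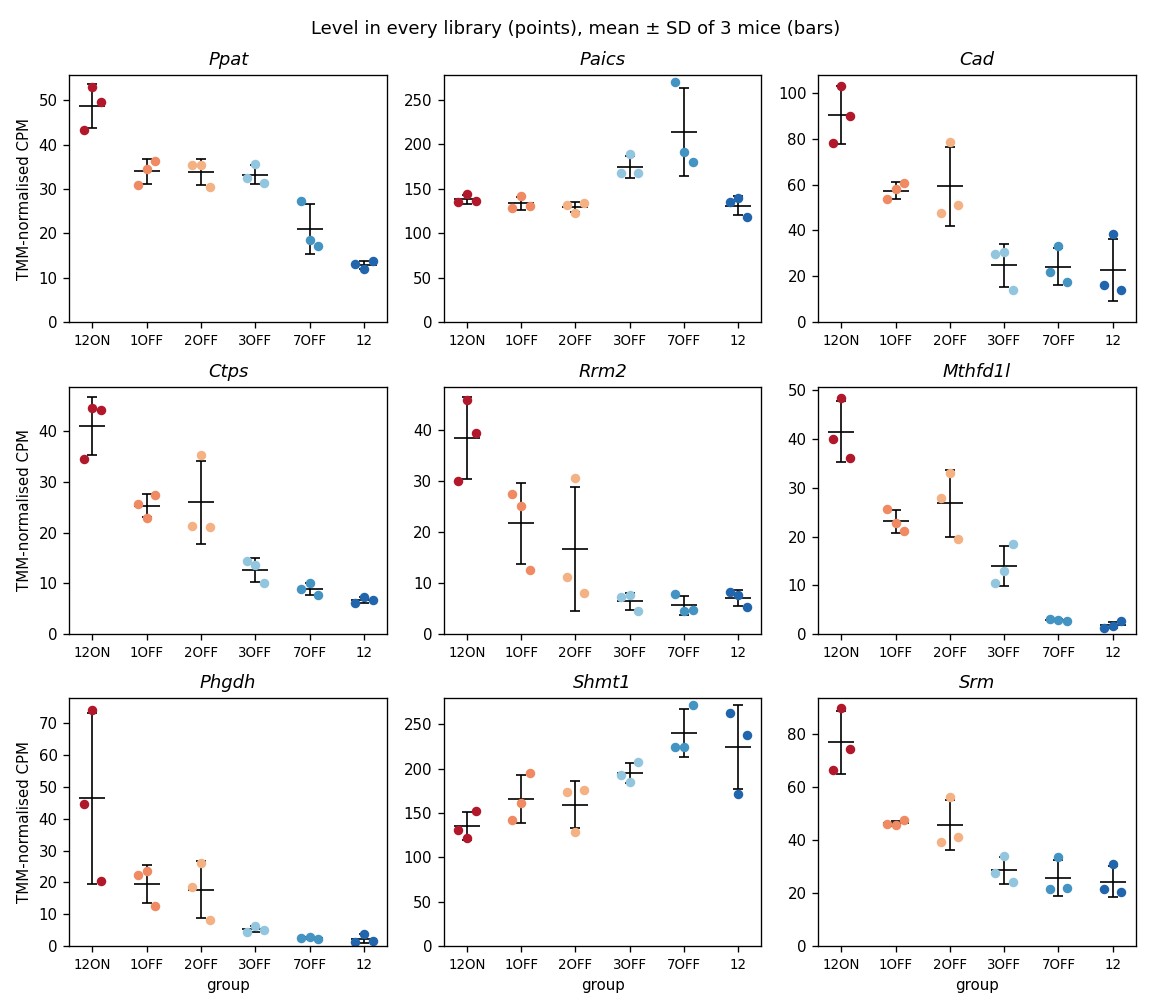
TMM-normalised CPM (vertical axis, from 0) of 9 members in every library (points) by group, with the mean and SD of 3 mice as bars. Ppat, Cad, Ctps, Rrm2, Mthfd1l, Phgdh and Srm are highest in 12ON and lower in 3OFF and 7OFF, Shmt1 is lowest in 12ON, and Paics is highest in 7OFF.

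Salvage, breakdown and transport around these routes were read from 80 other listed genes, of which 79 were tested and Pnp was not matched. In 12ON 21 of them, or 26.6%, were higher and 27, or 34.2%, lower, against 24% and 22.6% of all tested genes. Purine breakdown held 4 genes lower of 6, among them Gda, guanine deaminase (-1.58 ± 0.22), and Xdh, which makes uric acid (-0.70 ± 0.14). Purine interconversion and salvage held 4 higher and 1 lower of 11, with Aprt, which salvages adenine, at 1.02 ± 0.10. For pyrimidines 1 of 10 rose and 3 fell. Uck2, the uridine-cytidine kinase known from tumours, gave 61.9, 79.4 and 65.7 CPM in 12ON and 9.08, 11.6 and 9.30 CPM in group 12 (2.79 ± 0.19, edgeR adjusted p = 8.66e-08), while Uck1 (-1.05 ± 0.18) and Dpyd, which opens the breakdown of uracil and thymine (-1.21 ± 0.22), fell.

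Among 7 genes of deoxynucleotide supply, 3 (42.9%) rose and 2 (28.6%) fell, where 24% of all tested genes rose and 22.6% fell. Dctd, which turns dCMP into dUMP, gave 13.2, 18.8 and 13.0 CPM in 12ON and 0.311, 0.193 and 0.151 CPM in group 12, a separation of 6.20 ± 0.57 in log2 whose size is uncertain because group 12 was so low. Tk2 of the mitochondrion (-0.69 ± 0.10) and Samhd1, which degrades deoxynucleotides (-0.57 ± 0.12), fell. Of 11 other folate genes 2 (18.18%) rose and 5 (45.45%) fell. The reduced folate carrier Slc19a1 gave 30.3, 32.7 and 27.7 CPM in 12ON and 6.12, 7.61 and 5.51 CPM in group 12 (2.24 ± 0.20), and the proton-coupled carrier Slc46a1 22.3, 22.5 and 23.8 CPM in 12ON and 49.8, 49.5 and 54.8 CPM in group 12 (-1.17 ± 0.12). These carriers moved in opposite directions, and neither overlapped between the groups.

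In the methionine cycle 3 of 8 genes rose and 3 fell, 37.5% each way, where 24% of all tested genes rose and 22.6% fell. Mat2a, the methionine adenosyltransferase of tissues other than adult liver (1.67 ± 0.13), Mtr (0.81 ± 0.14) and Mtrr (2.29 ± 0.15), which regenerate methionine, rose. Mat1a, the liver form (-1.01 ± 0.36), Ahcy (-1.45 ± 0.31) and Cbs, which takes homocysteine out of the cycle (-2.52 ± 0.21), fell, beside hepatocyte markers of which 9 of 10 fell. Of 12 genes that break down glycine, choline-derived methyl donors and serine, 3 (25%) rose and 5 (41.7%) fell. Among those that fell were Gcsh of the glycine cleavage system (-0.80 ± 0.11) and Sds, serine dehydratase (-1.30 ± 0.39). Of 14 genes around the polyamines 4 rose and 4 fell, 28.6% each way, which is near the shares of all tested genes. Eif5a, the factor that carries the polyamine-derived hypusine (1.03 ± 0.12), and Mtap, which salvages the methylthioadenosine left by polyamine synthesis (1.04 ± 0.12), rose, while Paox, a polyamine oxidase (-0.81 ± 0.15), and the antizyme gene Oaz1 (-0.40 ± 0.09) fell.

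**Figure D4:**
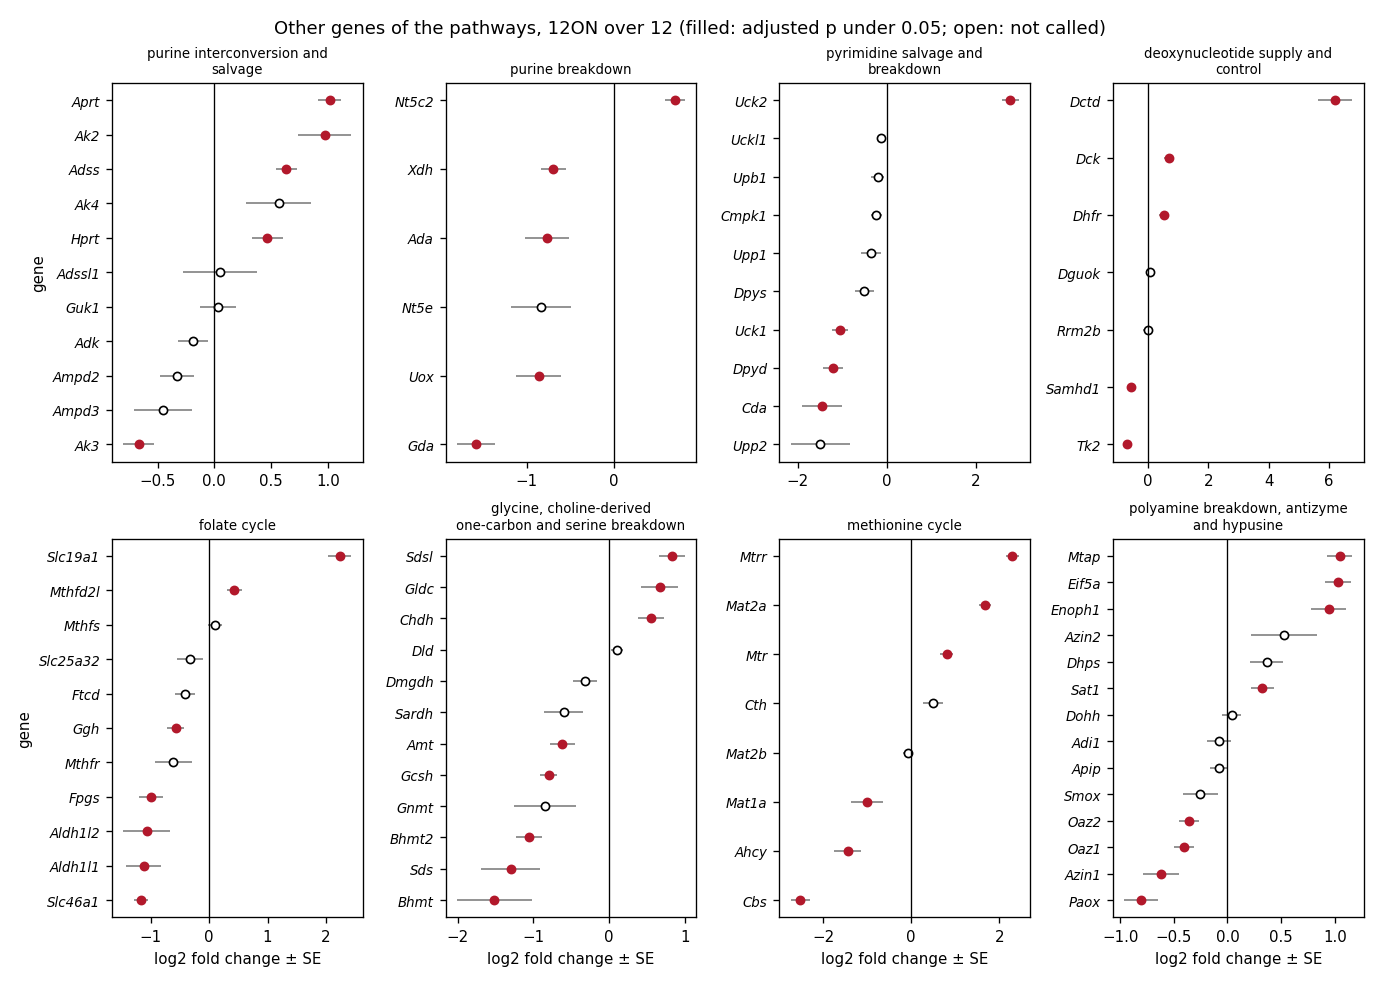
Log2 fold changes of 79 other genes of these pathways in 12ON over 12 with standard errors, in 8 lists (each panel has its own scale); filled points passed an adjusted p of 0.05. Most filled points of purine breakdown and the folate cycle lie left of 0, with Uck2, Dctd and Slc19a1 far to the right.

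Ratios of isozymes within a library depend little on library scaling, and 8 were compared per kb of exon. Shmt2 over Shmt1 had a median of 1.80 in 12ON and 1.07 in group 12, Ctps over Ctps2 of 1.82 in 12ON and 0.71 in group 12, and Impdh2 over Impdh1 of 5.10 in 12ON and 3.73 in group 12. The median of Rrm2 over Rrm2b was 26.1 in 12ON and 4.24 in group 12, and that of Mat2a over Mat1a was 0.187 in 12ON and 0.0261 in group 12. Mthfd2 over Mthfd2l (7.83 in 12ON, 2.59 in group 12), Prps2 over Prps1 (0.485 in 12ON, 0.403 in group 12) and Nme1 over Nme2 (0.152 in 12ON, 0.114 in group 12) were higher in 12ON too. None of the 8 ratios overlapped between 12ON and group 12. Each reached p = 0.1 in an exact two-sided permutation test, the smallest p that 3 mice against 3 can give, and 0.1 after Benjamini-Hochberg adjustment over the 8. The log2 difference of Prps2 over Prps1 was 0.50, and 0.22 without group 12 replicate 2.

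**Figure D5:**
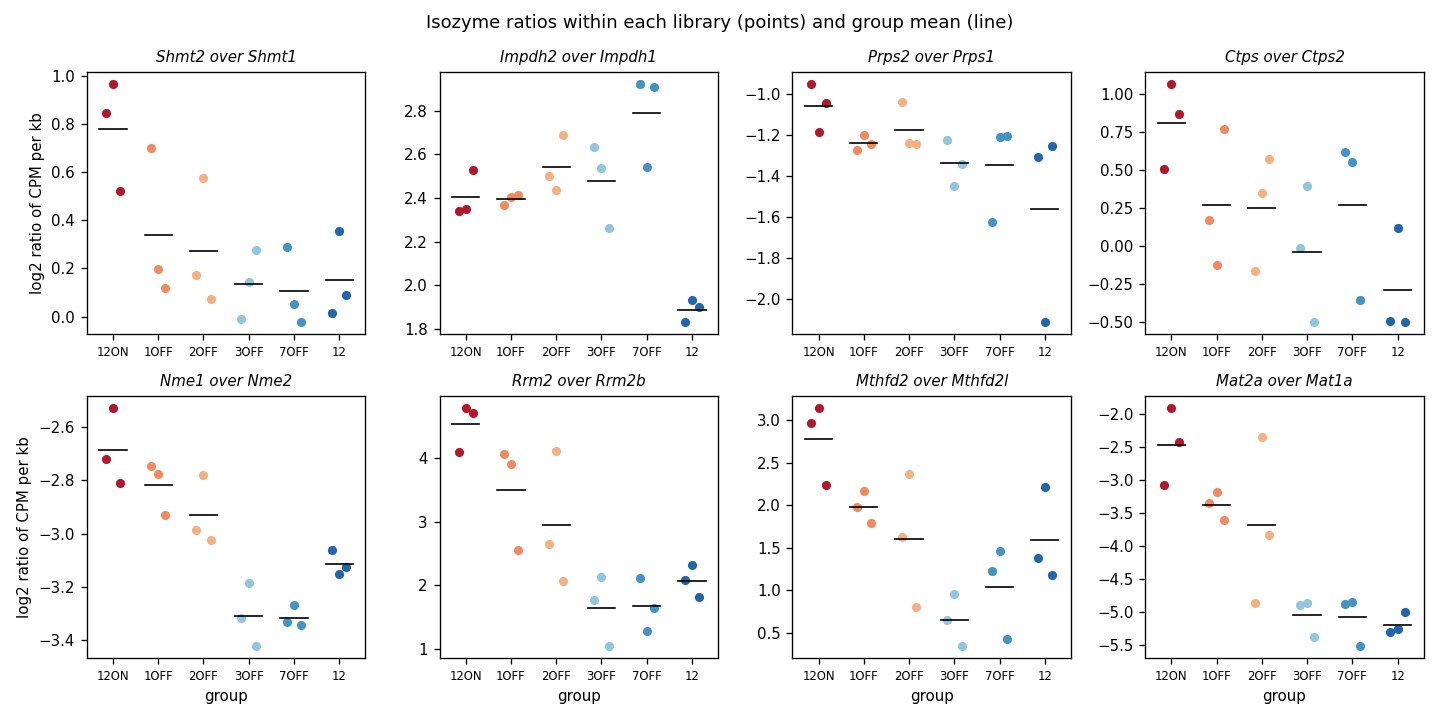
Log2 ratio of CPM per kb of exon (vertical axis) for 8 isozyme pairs in every library (points) by group, with the group mean as a line. Every 12ON point lies above every point of group 12 in all panels, and Impdh2 over Impdh1 stays above group 12 in every OFF library.

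Per kb of exon, the order of the members' levels differed between groups. Nme2, Mthfd1 and Shmt2 led in 12ON with mean levels of 154, 62.1 and 59.5 CPM per kb, followed by Odc1 at 48.3 and Srm at 48.0. The same 3 genes led in group 12, Nme2 at 187 CPM per kb. Odc1 stood there at 23.4 and Srm at 15.2 CPM per kb. Mthfd1l had the lowest level of the 36 in group 12, 0.419 CPM per kb, and 9.36 CPM per kb in 12ON.

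The OFF groups were compared with 12ON to see how the genes stood at each day without activation. These comparisons share the 12ON mice with one another and with the first. In 1OFF no member was called by edgeR's test, and only 1 gene was called among all tested, Gm26714, higher (0.00562%), named after its value was seen. No gene was called lower (0%). At an unadjusted p under 0.05 there were 18 members and 14.4% of all genes. DESeq2 called 10 members lower, and of 25852 genes fitted it called 389 lower and 125 higher. Of the 36 members, 25 were lower in every 1OFF library than in every 12ON library, where 15% of all genes were, and the median log2 fold change was -0.38. Rrm1 gave 25.7, 25.5 and 19.2 CPM in 1OFF and 43.4, 54.7 and 48.5 CPM in 12ON (-1.05 ± 0.25, edgeR adjusted p = 0.0964), and Srm 46.0, 45.5 and 47.3 CPM in 1OFF and 66.4, 89.7 and 74.1 CPM in 12ON (-0.73 ± 0.20). For both genes the highest 1OFF library was below the lowest 12ON library. Phgdh (-1.24 ± 0.45) and Psat1 (-1.20 ± 0.55) had lower fitted values still, with libraries that overlapped.

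In 2OFF no gene at all was called by edgeR's test (0% higher, 0% lower). At an unadjusted p under 0.05 there were 26 members and 17.1% of all genes. DESeq2 called 16 members lower, and of 25852 genes fitted it called 650 lower and 269 higher. The members' median was -0.50, and 22 of the 36 were lower in every 2OFF library than in every 12ON library, where 12.2% of all genes were. The 2OFF mice were uneven. Replicate 2 was the highest of the 3 in 26 of the 27 genes that had risen in 12ON, as for Rrm2 with 11.2, 30.6 and 8.10 CPM in 2OFF against 29.9, 45.8 and 39.3 CPM in 12ON, and for Psat1 with 42.7, 60.1 and 14.5 CPM in 2OFF against 115, 125 and 48.1 CPM in 12ON. The sum of S phase and mitosis markers ran from 98.2 to 329 CPM in 2OFF, and from 380 to 527 CPM in 12ON. Without 2OFF replicate 2, 18 members were called lower, and among all tested genes 995 were lower and 526 higher. Rrm2 then had a log2 fold change of -1.99 (edgeR adjusted p = 0.00491), against -1.21 ± 0.41 with it.

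In 3OFF 28 members were lower than in 12ON, 1 was higher and 7 were not called, where 17% of all genes were lower and 15.3% higher. The median log2 fold change was -0.90. Psat1 gave 8.54, 15.3 and 7.29 CPM in 3OFF and 115, 125 and 48.1 CPM in 12ON (-3.21 ± 0.59, edgeR adjusted p = 0.001), and Phgdh 4.48, 6.20 and 5.12 CPM in 3OFF and 44.5, 74.2 and 20.4 CPM in 12ON (-3.14 ± 0.48). Rrm2 (-2.56 ± 0.43) and Mthfd2 (-2.38 ± 0.37) were also lower by over 2 in log2. Ppat was called lower as well, with 32.6, 35.5 and 31.4 CPM in 3OFF and 43.2, 53.0 and 49.6 CPM in 12ON (-0.55 ± 0.14, edgeR adjusted p = 0.00768). Mthfd1l, at 10.5, 12.8 and 18.4 CPM in 3OFF (-1.58 ± 0.23), was also above every library of group 12. Shmt1 was the member called higher, with 193, 185 and 208 CPM in 3OFF and 131, 122 and 153 CPM in 12ON (0.53 ± 0.17, edgeR adjusted p = 0.0248), a call lost without 12ON replicate 1 (0.49), 12ON replicate 2 (0.45) or 3OFF replicate 3 (0.48). Prps1, called lower at -0.30 ± 0.11, lost its call without any of 5 libraries, and Ctps2 (-0.84 ± 0.24) without 3OFF replicate 2 (-0.70). Without 12ON replicate 2, the number of all genes called fell to 3721, against 5754 with it. Total-count scaling gave 952 genes higher and 6526 lower in 3OFF, against 2726 and 3028. The median of all genes was then -0.31, against 0.01 with TMM, and no member was higher.

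In 7OFF 27 members were lower than in 12ON and 3 were higher, where 22.7% of all genes were lower and 21.4% higher. The median log2 fold change was -1.09. Mthfd1l gave 3.07, 2.95 and 2.72 CPM in 7OFF and 40.0, 48.4 and 36.1 CPM in 12ON (-3.83 ± 0.26, edgeR adjusted p = 2.22e-07), and Ctps 8.80, 10.1 and 7.74 CPM in 7OFF and 34.5, 44.7 and 44.2 CPM in 12ON (-2.21 ± 0.20). Both groups stood apart in every library. Phgdh (-4.23 ± 0.52) and Psat1 (-3.95 ± 0.62) had the lowest fitted values beside Mthfd1l, and Psat1 was at -4.56 with a term for the mitochondrial share. The 3 genes that were higher were Paics (0.63 ± 0.13), Shmt1 (0.83 ± 0.17) and Mthfd1 (0.41 ± 0.16). Paics gave 270.5, 191 and 179.9 CPM in 7OFF and 135, 144 and 136 CPM in 12ON (edgeR adjusted p = 0.000985), so that every 7OFF library was above every 12ON library, with replicate 1 highest. The call of Mthfd1 was lost without any 1 of 5 libraries and with a term for the mitochondrial share (0.48), and that of Nme1, lower at -0.57 ± 0.17, without 7OFF replicate 3 (-0.48). Amd1 (-0.50 ± 0.21) was called lower without 7OFF replicate 1 (-0.84) and with that term (-0.72). Total-count scaling gave 1348 genes higher and 8204 lower in 7OFF, against 3801 and 4032. The median of all genes was then -0.41, against 0.0062 with TMM, and no member was higher. Mthfd1 stood at -0.0034 under it and Nme2 at -0.36, against 0.06 with TMM.

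Across the OFF groups, the 27 genes that were higher in 12ON stood at a median of 71.2% of their 12ON mean in 1OFF, 69.4% in 2OFF, 47.7% in 3OFF and 43.2% in 7OFF. Called lower were 0 in 1OFF, 0 in 2OFF, 26 in 3OFF and 26 in 7OFF. These genes were chosen as high in the same 12ON mice, which by itself favours values below 100%, so the percentages and counts are a description. Each group holds other mice, and the OFF groups differ from 12ON in day from injury as well as in activation. The order of the groups cannot be read as a decline from 12ON, and the labels do not give earlier activation. All 4269 tested genes chosen in the same way stood at a median of 86.3% in 1OFF, 86.5% in 2OFF, 70.5% in 3OFF and 61.6% in 7OFF, with 0, 0, 2469 and 3194 called lower. Amd1 was the gene not called in 3OFF and in 7OFF. The genes differed in their pattern over the OFF groups. Phgdh stood at 42.2% of its 12ON mean in 1OFF, 38.1% in 2OFF, 11.4% in 3OFF and 5.31% in 7OFF. Ctps2 stood at 91.3% in 1OFF, 94.4% in 2OFF, 56.0% in 3OFF and 32.3% in 7OFF, and Ppat at 69.9%, 69.5%, 68.2% and 43.2% on the same days. The differences between these patterns were not tested. The summed S phase and mitosis markers had a mean of 200.2 CPM in 1OFF, 194 in 2OFF, 79.1 in 3OFF and 52.1 in 7OFF, against 441 in 12ON. The summed hepatocyte markers averaged 46430 CPM in 1OFF, 44415 in 2OFF, 70606 in 3OFF and 79863 in 7OFF, against 35841 in 12ON. No marker of any list was called in 1OFF or 2OFF, where edgeR's test called 1 gene and 0 genes among all tested. At its unadjusted p under 0.05 there were 9 of 10 S phase and mitosis markers in 1OFF and 10 of 10 in 2OFF. The same threshold held 4 of 10 hepatocyte and 5 of 6 endothelial markers in each group, and 2 and 5 of 6 cholangiocyte markers. It held no Kupffer cell, stellate cell, lymphocyte or erythroid marker, against 14.4% and 17.1% of all genes. Against 12ON, cholangiocyte markers were lower in 6 of 6 in 3OFF and 6 of 6 in 7OFF, with mean sums of 76.9 CPM in 3OFF, 64.9 CPM in 7OFF and 189 CPM in 12ON. Endothelial markers were higher in 6 of 6 in 3OFF and 5 of 6 in 7OFF, with mean sums of 250.6 CPM in 3OFF, 251.2 CPM in 7OFF and 150.1 CPM in 12ON. Kupffer cell markers were higher in 4 of 8 in 3OFF and lower in 2 of 8 in 7OFF, and lymphocyte markers were higher in 3 of 6 in 3OFF and 2 of 6 in 7OFF. Of the stellate cell markers 2 of 7 were lower in 3OFF and 2 of 7 in 7OFF, and of the erythroid markers 4 of 5 were lower and 1 higher in 7OFF and none was called in 3OFF. Of all tested genes 15.3% were higher and 17% lower in 3OFF, and 21.4% were higher and 22.7% lower in 7OFF. In 7OFF the shares of Kupffer cell (25%) and stellate cell (28.6%) markers that were lower were near that of all genes. The part of these cells in the percentages of the 12ON mean was not tested.

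Against group 12, 3 members were higher in 7OFF and none lower, where 2.47% of all genes were higher and 3.31% lower. The median log2 fold change was 0.07. Ppat gave 27.4, 18.4 and 17.2 CPM in 7OFF and 13.0, 12.0 and 13.7 CPM in group 12 (0.70 ± 0.15, edgeR adjusted p = 0.0142). Its neighbour Paics gave 270.5, 191 and 179.9 CPM in 7OFF and 135, 139 and 119 CPM in group 12 (0.71 ± 0.13, edgeR adjusted p = 0.00782). Impdh2 gave 51.2, 48.5 and 49.5 CPM in 7OFF and 34.8, 41.8 and 33.3 CPM in group 12 (0.44 ± 0.12, edgeR adjusted p = 0.0419). In all 3 genes the groups did not overlap. Ppat and Paics were both highest in 7OFF replicate 1. Their exons share 272 bases, where reads were counted for both, so the 2 calls are not separate. The part of Paics reads in the Ppat call was not tested. In this comparison 6 of 8 Kupffer cell markers were lower, with sums of 854 to 940 CPM in 7OFF and 1545 to 1921 CPM in group 12. The summed hepatocyte markers, of which Cps1 alone was called, higher, gave 73616 to 91276 CPM in 7OFF and 106718 to 116809 CPM in group 12. Of the other lists 1 of 6 cholangiocyte markers was higher and 1 of 6 lymphocyte markers lower, and no marker of S phase, endothelium, stellate cells or red cells was called. The part of cell makeup in the 3 calls was not tested. By label 7OFF and group 12 also differ in the day from injury, whose part was not tested either. Impdh1 did not pass, with 7.23, 8.91 and 7.04 CPM in 7OFF and 10.5, 11.7 and 9.56 CPM in group 12 (-0.45 ± 0.13, edgeR adjusted p = 0.0509), and DESeq2 called it lower (-0.45, DESeq2 adjusted p = 0.025). The call of Impdh2 was lost without any 1 of 5 libraries and with a term for the mitochondrial share (0.48), and none of the 3 was called when the 6 libraries were fitted alone. Among all genes 1027 were called, and 366 without 7OFF replicate 1, 475 without 7OFF replicate 2, 381 without group 12 replicate 1, 620 without its replicate 2 and 665 without its replicate 3. Sms (0.33 ± 0.14) was called higher without group 12 replicate 3 (0.53). Mthfd1l, at 3.07, 2.95 and 2.72 CPM in 7OFF, was above group 12 in every library and was not called (0.59 ± 0.27, edgeR adjusted p = 0.213).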

How the data were processed

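Poly-A RNA of 18 mouse livers was sequenced, and the deposited files hold raw read counts per gene. The submitters' processing notes name Trim Galore, TopHat2, featureCounts and the build mm10, and per the file headers the authors' counts came from featureCounts 1.5.0-p1 with Ensembl 82 exons, without strand, with a minimum overlap of 10 bases, reads on several genes counted for each, and reads with several alignments left out. All symbols of the members matched. Groups follow the labels, with 3 mice each.

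Genes with low counts were left out with filterByExpr at a minimum count of 10. The 17789 genes left were scaled by TMM and tested in 1 fit of 6 groups, with edgeR 4.0.16 (R 4.3.3), quasi-likelihood F test, two-sided, adjusted over all of them at 0.05, as stated in the report. The standard error is the log2 fold change over the root of F. Isozyme ratios used counts per kb of exon within each library with nothing added, and an exact permutation test with SciPy 1.17.1. Adding 0.5 to the counts was an alternative. Shared words of 50 bases were counted in GENCODE M21 transcripts (GRCm38). DESeq2 1.42.0 was an alternative, as were other scalings, no filter, a term for the mitochondrial share or for high Xist, the 2 groups alone, a replicate block and each replicate left out. High Xist was seen in 5 libraries, 1 in each group but 1OFF, where there was none. Replicate tables of a group differed by more than sampling noise. Depth was 23.1 to 75.3 M counts a library, and reads without molecular identifiers are not independent molecules. The members and lists were chosen with earlier results of these data known. Every member may be named, and of other pathway genes up to 4 per list and direction with the smallest p in 12ON against 12. Rrm2b is named as the partner in a ratio.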

Additional observations from a re-analysis of the deposited data

How the results depend on the processing

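With total-count scaling, which moved the median of all genes in 12ON over 12 by 0.49, the members lower in 12ON were 0, and Shmt2 turned to 0.40. The same scaling left 0 members higher in 3OFF and 0 in 7OFF against 12ON, and turned Nme2 in 7OFF to -0.36 and Mthfd1 to -0.0034. With it 138 genes were called in 2OFF, 135 of them lower, with 3 members lower, and 0 genes in 1OFF. Total-count scaling set the log2 ratios of the summed arms in 12ON over 12 to 1.18 for purine, 1.89 for pyrimidine, 1.77 for deoxynucleotide, 0.34 for the diphosphate kinases, 0.57 for serine and folate and 1.71 for polyamine genes, against 0.68, 1.39, 1.27, -0.16, 0.08 and 1.20 with TMM. A term for the mitochondrial share left 4117 genes called in 12ON, 0 in 1OFF and 417 in 7OFF against 12, and a term for high Xist left 0 in 1OFF. Fitting the 2 groups alone called 171 genes in 1OFF, 132 of them lower, with 7 members lower. It called 2 members higher in 3OFF, and 218 genes with 0 members higher in 7OFF against 12. DESeq2 called 514 genes in 1OFF, 389 of them lower, with 10 members lower. In 2OFF it called 919 genes, 650 of them lower, with 16 members lower. It called 2 members higher in 3OFF, and 1668 genes with 1 member lower in 7OFF against 12. RLE size factors also gave 1 member lower there. Counting the motif variants gave 12 windows in place of 7. The causes were not tested.

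Correlations of same-numbered deviations ran from -0.18 to 0.29 over 18 pairs, with 7 over 0.1, and 5 libraries correlated best with their own number. In 12ON replicate 2 was the highest for 25 of the 27 genes that rose there, in 2OFF for 26 and in 3OFF for 15. The number was 17 in 7OFF and 16 in group 12, and in 1OFF replicates 2 and 3 each had 11. Whether equal numbers mark paired mice or a shared batch cannot be decided from these values. The replicate block called 18 genes in 1OFF, 14 of them lower, with 2 members lower. In 2OFF it called 439 genes, 346 of them lower, with 12 members lower, and in 7OFF against 12 it called 1 member lower.

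Leaving out each replicate in turn gave 6863 to 7514 genes called, 27 to 28 members higher and 1 to 2 lower in 12ON. It gave 0 genes called in 1OFF in every case, and 0 to 1521 genes called in either direction with 0 to 18 members lower in 2OFF. In 3OFF 3721 to 5179 genes were called, with 0 to 1 members higher and 27 to 29 lower. Against 12ON, 7OFF had 6302 to 7428 genes called, 2 to 3 members higher and 26 to 28 lower. Against group 12 it had 366 to 1267 genes called, 2 to 3 members higher and 0 to 1 lower. Of 3024 single values under alternatives, 2883 kept their direction and call, 105 gained a call, 33 lost it and 3 reversed. With 3 mice a group the spread is known poorly, and a p above the threshold does not show equal levels.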

Other observations

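Of the 79 other pathway genes, 34, or 43.0%, were higher in 7OFF than in 12ON, where 21.4% of all tested genes were, and 16, or 20.2%, were lower, near the 22.7% of all tested genes. Dctd gave 0.245, 0.631 and 1.08 CPM in 7OFF and 13.2, 18.8 and 13.0 CPM in 12ON (log2 fold change -4.47 ± 0.47), and Uck2 15.6, 11.9 and 15.5 CPM in 7OFF and 61.9, 79.4 and 65.7 CPM in 12ON (-2.27 ± 0.18). Both stood apart in every library. The carrier Slc19a1 (-1.73 ± 0.20) was lower and the carrier Slc46a1 (1.24 ± 0.12) higher. In the methionine cycle, Mtrr (-2.07 ± 0.14) and Mat2a (-1.33 ± 0.13) were lower, and Cbs (1.95 ± 0.21), Ahcy (1.64 ± 0.31) and Mat1a (1.25 ± 0.36) higher. Dpyd, of pyrimidine breakdown, gave 478, 370.4 and 467 CPM in 7OFF and 159.9, 121 and 155 CPM in 12ON (1.59 ± 0.22).

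Against group 12, 2 of the 79 genes, or 2.53%, were higher in 7OFF and 1, or 1.27%, lower, which is near or below the 2.47% and 3.31% of all tested genes. Uox, the urate oxidase of purine breakdown (1.03 ± 0.26), and Adssl1, an adenylosuccinate synthase named after its value was seen (1.21 ± 0.33), were higher, and Samhd1 (-0.44 ± 0.12) was lower.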
